A study of Schizosaccharomyces pombe with 2 samples.

Results

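The genes described here are those of the pre-mRNA splicing machinery of fission yeast, Schizosaccharomyces pombe. A gene was chosen where its deposited annotation text held one of the terms splicing, snRNP, spliceosom or U2AF and none of the terms snoRNP, rRNA, kinase or mitochondrial. Of the 5076 genes in the table, 5 met this rule, and no gene with one of the first terms was removed by the second. The annotation text was filled in for 1343 genes (26.5%), among them 511 of the 4228 genes that carry a symbol and 832 of the 848 that do not. The best known splicing genes carry symbols, so the rule could not reach most of them. The 5 genes are therefore described together with 107 further genes in 11 lists of splicing factors by role, none of which the rule had found; 1 of the 107 had any annotation text.

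The libraries were 1 of wild-type cells and 1 of cells with a deletion of ppr10, both from cultures in logarithmic phase. The labels name no other allele, no strain background and no treatment for either group. Its product is a pentatricopeptide repeat protein, one of a family of organellar RNA-binding proteins. The libraries held 17053000 (wild type) and 16885000 (deletion) reads, rounded, and ppr10 itself had 1879 against 12. With 1 library per group there is no check against the spread between cultures and no test: every interval below is an exact 95% interval of the reads and covers counting error only.

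Introns are removed from messenger RNA precursors by the spliceosome, which is built anew on each intron from small nuclear ribonucleoprotein particles (snRNPs). The U1 snRNP recognises the start of the intron and U2AF its end, the branch point protein binds between them, and the U2 snRNP then pairs with the branch point. The U4/U6.U5 tri-snRNP joins, the Prp19 and Cdc5 complex stabilises the catalytic core, and RNA helicases drive each rearrangement. Introns are short and common in fission yeast genes, and many classical splicing factors were found there as prp and cwf genes. The table counts reads per gene and does not separate spliced from unspliced RNA, so it gives the levels of the factors and not their activity.

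Levels are given in RPKM, reads scaled by the authors to the listed length of the gene and to the size of the library. A difference is log2((deletion RPKM + 1)/(wild-type RPKM + 1)), in short the log2 difference, and ratios are deletion over wild type. A gene was called higher or lower where this difference reached 2-fold, or 1.5-fold as a smaller limit, among genes with a mean of at least 1 RPKM. Of all 4986 such genes, 2.79% were higher and 1.14% were lower by 2-fold, and 7.94% were higher and 4.49% were lower by 1.5-fold. The median log2 difference of all of them was 0.05, with quartiles at −0.17 and 0.26. Of these 4986 genes, 2845 lay above 0 and 2141 below.

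None of the 5 genes chosen by text was higher or lower by 2-fold or by 1.5-fold. Of all tested genes, 2.79% were higher and 1.14% were lower by 2-fold, and 7.94% and 4.49% by 1.5-fold. With 5 genes, shares of that size leave few or none to be called. The log2 differences of the 5 ran from −0.52 to 0.33 with a median of 0.08. Of the 5, 4 lay slightly above 0 (gih35 at −0.005 when scaled to the median gene), and the remaining 1 had so few reads that neither direction nor size can be read from it. On the opposite strand another annotated gene covers 50.8% of the coding exons of gih35. For snp27, SPAC29A4.06c, SPAC222.18 and min8 the cover is 100%. Reads of both genes could thus be mixed in all of these values.

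The gene snp27 (SPCC162.01c, chromosome III) encodes a subunit of the tri-snRNP and was the most abundant of the 5. It stood at 98.5 RPKM in the wild type against 104.1 in the deletion, from 1235 and 1292 reads. The ratio was 1.06 (0.976 to 1.14), so the levels were not distinguishable at this depth. It was above 64.3% of all tested genes in wild-type level.

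SPAC29A4.06c (chromosome I) is annotated as the homologue of a nuclear speckle protein that regulates splicing. It stood at 52.6 RPKM in the wild type against 57.3 in the deletion, with a ratio of 1.09 (0.996 to 1.19). The helicase gene gih35 (SPAC20H4.09, chromosome I), which is annotated as spliceosomal by prediction only, stood at 41.8 against 43.2 RPKM, a ratio of 1.03 (0.958 to 1.11). Neither pair of levels was distinguishable at this depth. With 8 annotated introns in its coding sequence, gih35 had the most of the 5, whereas snp27 had none.

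SPAC222.18 (chromosome I) is annotated as a splicing factor of the Srp1 family, while its deposited gene ontology text names cell growth and filamentous growth. It had the largest positive log2 difference of the 5, 0.33, at 20.6 RPKM in the wild type against 26.1 in the deletion. These values come from 118 and 148 reads, and the ratio of 1.27 (0.988 to 1.63) includes 1. Of all tested genes, 80.4% had a lower log2 difference.

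The fifth gene, min8 (SPAPB8E5.10, chromosome I), does not belong to the machinery by its text, which describes a conserved fungal protein with splicing specific to meiosis. Its reads numbered 6 against 3, or 1.58 RPKM in the wild type against 0.800 in the deletion. The interval of the ratio, 0.0817 to 2.36, is too wide for a direction. Its mean RPKM lies just inside the level at which a gene was tested. Of the genes that mark mating and meiosis, 7 could be tested: spo5 (0.964 against 3.09 RPKM) was higher and isp4 (37.2 against 12.9 RPKM) was lower by 2-fold, and mei3 had 0 reads against 3. By 1.5-fold 3 of the 7 were higher (42.9%) and 1 was lower (14.3%), against 7.94% and 4.49% of all tested genes. Among the 3, spo5 lay below 1 RPKM in the wild type and was tested only through its level in the deletion. The 7 genes are few and were picked by name, so no excess can be read from these shares. The listed markers mfm1 and mfm2 had no values here. Higher were spo5, ste11, the regulator of mating genes, at 10.1 against 17.9 RPKM (ratio 1.77, 1.51 to 2.09) and the protease gene isp6 at 38.8 against 59.3 (1.53, 1.41 to 1.67). The genes mei2 (ratio 0.993, 0.827 to 1.19), mei4 (0.888, 0.674 to 1.17) and mam1 (1.23, 1.14 to 1.33) passed neither limit. The part of a mating or meiotic state in the values of the splicing genes was not tested.

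**Figure D1:**
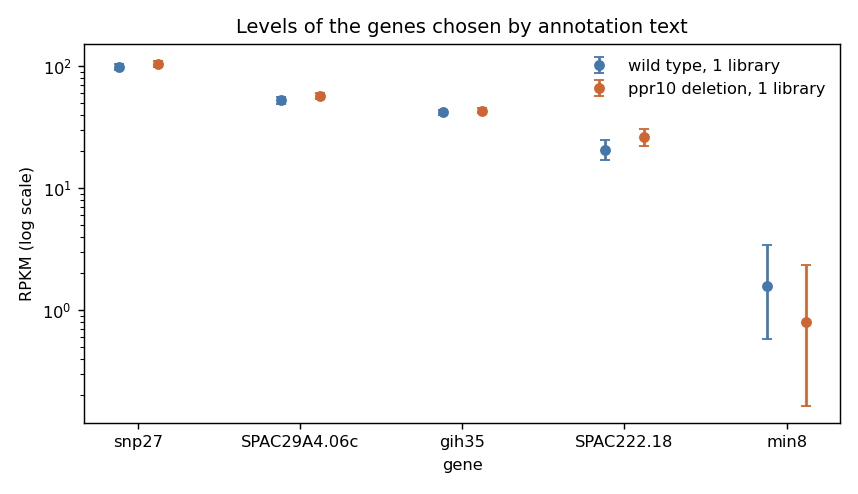
RPKM on a log scale for the 5 genes chosen by annotation text, as 1 point per library with an exact 95% interval of the reads. The levels of snp27, SPAC29A4.06c and gih35 nearly coincide between the libraries, and min8, at 1.58 and 0.800 RPKM, has the widest intervals.

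The 107 listed genes gave the same picture on a larger base. None was higher or lower by 2-fold. By 1.5-fold 1 was higher (0.935%) and 3 were lower (2.80%), against the 7.94% and 4.49% of all tested genes given above. The median log2 difference was 0.02, with 60 values above 0 and 47 below, and it changed sign to −0.027 when the libraries were scaled so that the median gene had no difference. Of the 107, 48 lay above the median of all tested genes and 59 below it. The quartiles of the 107, −0.14 and 0.16, lay closer together than those of all genes. Counts of the 107 ran from 52 to 11405 reads in a library. The 107 differ in make-up from all tested genes. Of the 107, 65.4% have introns against 47.3%, and the lowest wild-type level was 14.3 RPKM against 0.275. The part of either in the shares called was not tested.

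**Figure D2:**
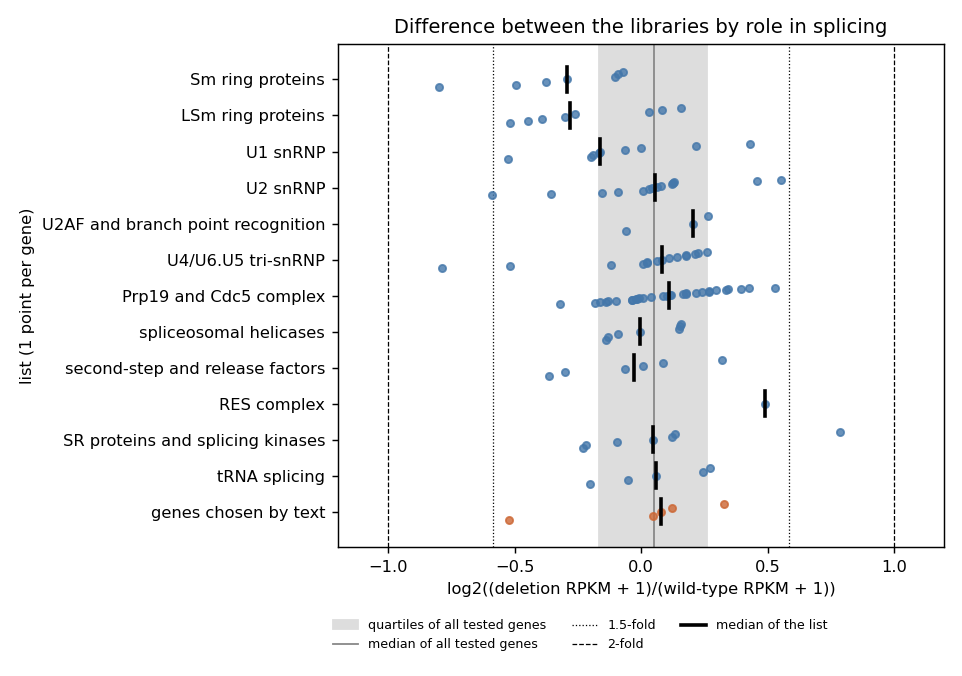
Log2 difference of each gene, deletion minus wild type, in the 11 pre-mRNA splicing lists, the tRNA splicing list and the 5 genes chosen by text, with the median of each list as a black bar. The grey band gives the quartiles of all tested genes, and no point reaches the dashed 2-fold lines.

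All genes of the Sm ring lay below 0. In each spliceosomal snRNP except U6, 7 Sm proteins close a ring around the RNA. The 7 genes had log2 differences from −0.80 to −0.07 with a median of −0.30, and all 7 were negative under each scaling, pseudocount and filter on low values that was tried. On the opposite strand another annotated gene covers over 10% of the coding exons of 6 of the 7, so reads of both could be mixed in these values; smb1, the 1 gene without such an overlap, stood at −0.10. The summed reads of the 7 genes were 3322 against 2775, a ratio of 0.844 (0.802 to 0.887).

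The largest of these differences was that of smd3, with 218 reads against 122, or 43.5 against 24.6 RPKM. Its ratio of 0.565 (0.449 to 0.709) passed the limit of 1.5-fold. Next were smd2, at 51.6 against 36.2 RPKM (ratio 0.703, 0.587 to 0.840), and smd1, at 123.2 against 94.7 RPKM (0.768, 0.688 to 0.858). The ratio intervals of these 3 genes, whose products are neighbours in the ring together with SmB, lay wholly below 1. For smb1 (188.1 against 175.0 RPKM), sme1 (46.7 against 37.9), smg1 (54.9 against 51.4) and smf1 (51.5 against 49.0), the ratio intervals included 1.

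Of the 8 genes of LSm proteins, which form the related ring of U6 or, with Lsm1 in place of Lsm8, a cytoplasmic ring for mRNA decay, 5 were negative and 3 positive. Their median was −0.28, and the ratio of summed reads was 0.833 (0.794 to 0.874). The lowest were lsm7 (88.5 against 61.5 RPKM, ratio 0.695), lsm1 (142.4 against 104.0, ratio 0.731) and lsm3 (100.6 against 76.4, ratio 0.760). None of the 8 passed the 1.5-fold limit, against 7.94% higher and 4.49% lower of all tested genes, shares that leave few or none of 8. The U6-specific lsm8 stood at 22.4 against 25.1 RPKM, with a ratio of 1.12 (0.858 to 1.47) that includes 1.

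The ring genes are short, and short coding sequences lay lower in the whole table as well. Among listed splicing genes of up to 450 bases, 18 of 23 were negative and the median was −0.30. All genes of both rings are among these 23, so this count is not separate from the values given above. How many of all tested genes of that length were negative was not counted. For all 628 tested genes of that length the median was −0.09, and for the 525 of them that encode no ribosomal protein it was 0.002, with quartiles at −0.30 and 0.30. In genes without ribosomal protein products the medians of the longer classes were 0.06 (over 450 and up to 900 bases) and 0.07 (over 900 and up to 1800, and over 1800 bases). Across the 107 genes, log2 length and log2 difference correlated at r = 0.33 (Spearman rho 0.27); without both rings, 92 genes gave r = 0.14 (rho 0.06), and all 4986 tested genes gave r = 0.07 (rho 0.11). The medians of the listed genes in the longer classes, 0.22, 0.008 and 0.05, did not increase with length. All genes share the same pair of libraries, so these values are descriptions. The part of length in the values of the ring genes was not tested.

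**Figure D3:**
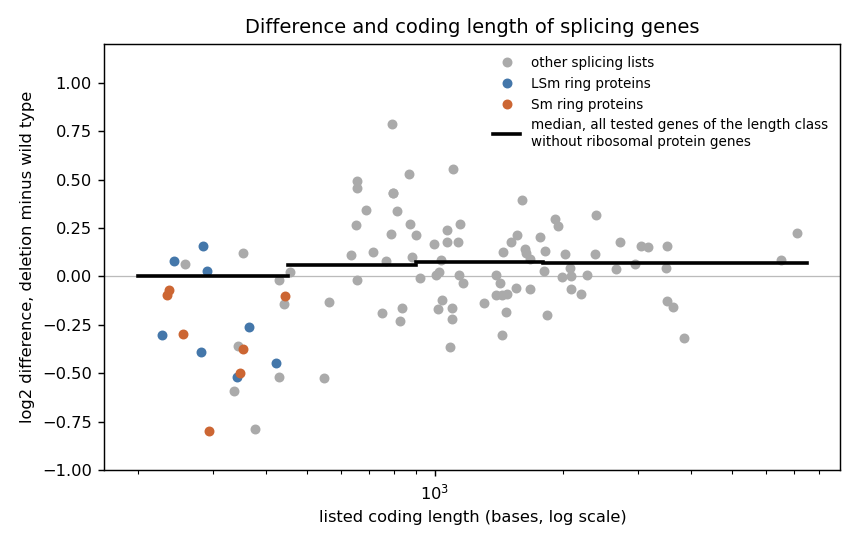
Log2 difference, deletion minus wild type, against listed coding length on a log scale for the 107 splicing genes, with black lines for the median of all tested genes in 4 length classes without ribosomal protein genes. The Sm and LSm points sit at the left, mostly below the line at 0.002 for genes of up to 450 bases.

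The U1 snRNP genes had a median of −0.16, with 6 of 9 negative and 7 below the median of all genes. The lowest was usp103, whose product is the U1 C protein that contacts the start of the intron, at 24.4 against 16.6 RPKM (ratio 0.682, 0.552 to 0.841). The highest was luc7, of a further U1 protein that aids recognition of weak intron starts in budding yeast, at 83.9 against 113.4 RPKM (1.35, 1.25 to 1.46). The gene usp101, of the U1 70K protein, stood at 90.6 against 105.6 RPKM (1.17). The genes of one particle therefore lay on both sides of 0.

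At the other end of the intron 2 genes lay above the median of all genes and 1 below it. Of the 3 genes of U2AF and branch point recognition, uaf2, the small subunit of U2AF, stood at 111.6 against 134.3 RPKM (ratio 1.20, 1.11 to 1.30). The branch point binding protein gene bpb1 stood at 120.6 against 139.2 RPKM (1.15, 1.10 to 1.21). The large U2AF subunit gene prp2 was nearly level, at 198.7 against 190.7 RPKM (0.959, 0.923 to 0.998).

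Of 14 U2 snRNP genes, 10 were positive and 4 negative, with a median of 0.05. Against the median of all genes, 7 lay above and 7 below. By 1.5-fold only msl1 was called, lower, at 14.3 against 9.17 RPKM from 82 and 52 reads; it encodes the U2 B″ protein, which holds a stem of U2 RNA. Its log2 difference of −0.59 is just past the limit, and the ratio interval of 0.444 to 0.918 spans it. The gene missed the limit when rescaled to TPM (−0.56) and with a pseudocount of 5 RPKM (−0.45). On the positive side were uap2 (54.8 against 80.8 RPKM, ratio 1.48, 1.36 to 1.60), whose relative in budding yeast helps to fold U2 RNA, and sap62, of the SF3a part of U2 (49.7 against 68.6 RPKM, ratio 1.38, 1.24 to 1.54). The coverage score of sap62, 87.6 in the wild type against 87.8 in the deletion, was among the lowest of the lists and nearly equal between the libraries.

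In the tri-snRNP 12 of 15 genes were positive and the median was 0.08. Against the median of all genes, 9 lay above and 6 below. Across the scalings, pseudocounts and filters tried, 3 to 6 genes were negative and the median ran from 0.03 to 0.13. The exception in size was snu13, which was lower by 1.5-fold, with 3563 reads against 2040, or 552.8 against 319.6 RPKM (ratio 0.578, 0.547 to 0.611). Its product binds U4 RNA but is also a core protein of the snoRNPs that guide ribosomal RNA modification, and the reference annotation names only that second role. It was the second most abundant gene of all the lists in the wild type. The gene dim1, of a small U5 protein, stood at 64.2 against 44.6 RPKM (0.694, 0.600 to 0.801). The gene spp42, of the protein at the heart of the catalytic site, stood at 47.7 against 55.8 RPKM (1.17, 1.13 to 1.21). The helicase gene brr2 stood at 48.9 against 51.9 (1.06, 1.02 to 1.10) and snu66 at 67.1 against 80.6 (1.20, 1.14 to 1.27). The log2 difference of brr2, 0.08, was close to the median of all genes.

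The largest list, the Prp19 and Cdc5 complex with its cwf partners, held 30 genes, of which 19 were positive and 11 negative, with a median of 0.11. Against the median of all genes, 17 lay above and 13 below. None of the 30 was called by either limit, against 7.94% higher and 4.49% lower by 1.5-fold of all tested genes. The highest were cwf23, a DnaJ domain protein gene (33.5 against 48.7 RPKM, ratio 1.45, 1.30 to 1.63), cwf15 (51.6 against 69.8, ratio 1.35) and cwf24, a zinc finger protein gene (77.8 against 102.7, ratio 1.32). The ubiquitin ligase gene prp19 stood at 225.3 against 198.3 RPKM (ratio 0.880), and the Myb-related cdc5 at 134.8 against 135.4 RPKM, a difference smaller than the shift of the median gene. The members that give the complex its name therefore lay near or below 0 while the highest values came from its partners.

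The log2 differences of the 7 helicase genes ran from −0.14 to 0.16, with a median of −0.005 that became 0.04 when rescaled to TPM. The genes prp16 (33.7 against 37.6 RPKM), prp11 (45.7 against 51.0) and cdc28 (66.2 against 73.6), whose products act at the second step, at branch point pairing and at the first step, had ratios of 1.12, 1.12 and 1.11. The export and splicing helicase gene uap56 was far more abundant, at 512.5 against 465.3 RPKM (0.908, 0.884 to 0.932).

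Of 6 further genes of the second step and of release, ntr2 stood at 70.8 against 54.8 RPKM (ratio 0.773, 0.712 to 0.840) and ntr1 at 83.5 against 104.4 (1.25, 1.19 to 1.31). In budding yeast the products of this pair work together to take the spent spliceosome apart. The debranching enzyme gene dbr1, which opens the excised lariat, stood at 80.3 against 64.9 RPKM (0.808, 0.756 to 0.864). The median of the 6 was −0.03, and it was 0.01 when rescaled to TPM. Of the RES complex, which helps to retain unspliced RNA in budding yeast, only cwf29 was matched by symbol, at 83.1 against 117.3 RPKM (1.41, 1.30 to 1.54). The symbols bud13 and pml1 matched no gene, and genes listed here under other names were not searched for. This list of 1 gene therefore does not describe the complex.

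The gene with the largest positive value in all the lists was sde2, which encodes a splicing regulator and was the only listed gene higher by 1.5-fold. Its 797 wild-type and 1372 deletion reads gave 59.0 against 102.6 RPKM, with a ratio of 1.74 (1.59 to 1.90). No other gene in the list of SR proteins and splicing kinases came near that size. On the opposite strand another annotated gene covers 100% of the coding exons of sde2, so reads of both could be mixed in its value. The same holds for many other genes named here, among them srp2, uap2, msl1, cwf23, cwf15, cwf24, snu66, bpb1, usp101, cdc28 and smd1. The cover was 80.1% for lsm7, 86.5% for lsm3 and 91.8% for dim1. The SR protein genes srp2 (564.8 against 485.2 RPKM, ratio 0.859, 0.835 to 0.884) and srp1 (307.7 against 262.0, ratio 0.851, 0.815 to 0.890) stood slightly below their wild-type level. The kinase genes dsk1 (ratio 1.09, 1.02 to 1.17) and prp4 (0.935) were nearly level. The median of the 7 was 0.04, and −0.005 after scaling to the median gene.

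Levels within the machinery spanned a wide range in both libraries. In the wild type the 107 genes ran from 14.3 RPKM (msl1) to 564.8 (srp2), with a median of 77.8, where all tested genes had a median of 68.4. In the deletion they ran from 9.17 to 485.2 RPKM with a median of 80.6. The most abundant were srp2, snu13 and uap56, all with roles outside splicing as well, followed by srp1 and prp19. Within the Sm ring, whose proteins occur once each, wild-type RPKM differed 4.33-fold from smd3 to smb1.

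**Figure D4:**
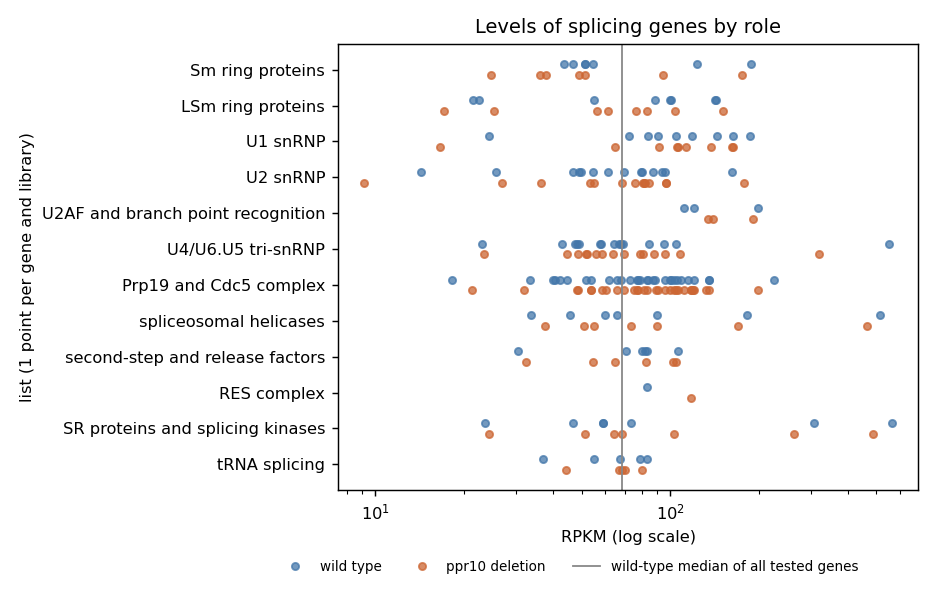
RPKM on a log scale for each gene of the 11 pre-mRNA splicing lists and the tRNA splicing list, with blue points for the wild-type library and orange points for the deletion library. Most points of both libraries lie near the grey line, the wild-type median of all tested genes (68.4 RPKM), and srp2, snu13 and uap56 lie far to the right.

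Many genes of the machinery are themselves split by introns. Of the 107, 70 (65.4%) have an annotated intron in the coding sequence, against 47.3% of all tested genes, and srp2 has the most, 9. All 15 ring genes have introns, whereas 1 of the 7 helicase genes has. The 37 listed genes without introns had a median log2 difference of 0.15 and the 70 with introns −0.03, where the values for all tested genes were 0.07 and 0.02. The ring genes are among the 70, so intron content, length and role cannot be told apart in this comparison.

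The enzymes of tRNA splicing, a separate pathway that cuts with a protein endonuclease, served for comparison. All 5 lay between the limits, where 7.94% of all tested genes were higher and 4.49% were lower by 1.5-fold. The median of the 5 was 0.06, and they ran from sen34 (79.0 against 68.5 RPKM, ratio 0.867) to sen15 (37.1 against 44.1, ratio 1.19) and sen2 (55.2 against 66.9, ratio 1.21).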

How the data were processed

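RNA was sequenced from 1 wild-type and 1 ppr10 deletion library. Per the submitters' processing notes, the tools were Bowtie2 2.2.3 and TopHat2 2.0.12 with the build ASM294v2, and the series' design text names BWA and Cufflinks too; which program made the table, with which annotation and strand setting, was not given in the sources used here. Per the file headers, the authors deposited counts of uniquely mapped reads, RPKM values and a coverage score with a percent sign. That score exceeds 100 in 7 genes and was only described. Recomputed RPKM differed from the deposited values by at most 4.99e-07. A dash was read as 0. The listed lengths are coding lengths, since 5075 of 5076 are multiples of 3.

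With 1 library per group no count model was used. Log2 differences had a pseudocount of 1 RPKM and a minimum mean of 1 RPKM, and were computed over the whole table. Ratios have exact (Clopper-Pearson) and levels exact Poisson 95% intervals from the reads. Reads from amplified libraries are not independent molecules. The 2-fold limit and the interval were tried on simulated Poisson reads. These hold counting error only, so they cannot show how either behaves with spread between cultures. The 1.5-fold limit was not simulated. Median reads per gene were 1497 (wild type) and 1590 (deletion).

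Symbols, products, chromosomes and introns came from RefSeq's ASM294v3, a later build, so no coordinates or sequences are given. Locus tags matched 5048 identifiers and a synonym 1, and 27 were unmatched. In the lists, 6 symbols matched no gene; a gene in several lists was kept in the first. The members and lists were chosen with earlier results of these data known. By a fixed rule the text names every gene chosen by text and, per list, up to 3 genes with the largest absolute difference at a mean of at least 5 RPKM; other genes named were chosen after their values were seen. Python 3.11.15, scipy 1.17.1 and blastn 2.17.0 were used.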

Additional observations from a re-analysis of the deposited data

How the results depend on the processing

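Under other pseudocounts, filters and scalings, no gene chosen by text and no listed gene was called by 2-fold. With a pseudocount of 0.1 RPKM 1 gene chosen by text, min8, was lower by 1.5-fold. The settings for the genes chosen by text were planned; the search of RefSeq products, the settings applied to the lists and the lists with genes left out were chosen after seeing the data. With the keywords sought in RefSeq products, 80 genes were found, of which 1 was higher and 2 were lower by 1.5-fold. For the lists, the median log2 difference was −0.027 after scaling to the median gene and 0.065 when rescaled to TPM, where 2 genes were higher by 1.5-fold; 2 were lower both there and with a pseudocount of 5 RPKM. On the opposite strand another annotated gene covered over 10% of the coding exons of 87 of the 112 genes, and without strand the reads of such pairs cannot be told apart. The 25 listed genes left without them had a median of 0.087, with 0 higher and 1 lower by 1.5-fold; the Sm list then held smb1 alone, at −0.10. The cause was not tested. Of the 39 genes named by the rule, only gih35 changed sign in a setting, and 270 of 272 recomputed values moved by less than the counting error. The 2 that moved more, both of srp2, kept their direction. Genes named outside the rule were not recomputed singly. The listed length differed from the annotated coding length in 5 listed genes, dbr1 among those named. No near-identical copy was found. No paired analysis was possible because there is a single library per group, and none could be left out.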

Other observations

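The deposited pathway column tags 12 genes as spliceosomal, of which 1 is a gene chosen by text (snp27) and 0 are in the lists. Of the 12, 8 lay above 0 and 4 below. None of the 12 was higher or lower by 2-fold, against 2.79% higher and 1.14% lower of all tested genes. Such shares leave few or none of 12. By RefSeq product several are no splicing factors: tda3 and SPAC1F5.03c are annotated as FAD-dependent oxidases or oxidoreductases and ppp16 as an acylpeptide hydrolase. Others are close to splicing or to the fate of spliced RNA. The helicase gene fal1 stood at 253.4 against 198.6 RPKM (ratio 0.784, 0.752 to 0.817), rbm8 at 78.4 against 72.0 (ratio 0.919, 0.806 to 1.05), and the THO complex gene tho3 at 49.2 against 52.4 (ratio 1.06, 0.964 to 1.18). SPAC25G10.01, annotated for splicing or surveillance of mRNA, stood at 73.3 against 99.8 RPKM (ratio 1.36, 1.26 to 1.47). SPBC11C11.01, annotated as a U2-associated protein, stood at 50.1 against 64.7 RPKM (ratio 1.29, 1.20 to 1.39). These genes were chosen after their values were seen.

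Genes with and without introns differed in how often they passed the limit. Of 2618 tested genes without an annotated intron in the coding sequence, 123 (4.70%) were higher and 35 (1.34%) were lower by 2-fold. Of 2352 genes with an intron, 15 (0.638%) were higher and 20 (0.850%) were lower. The medians of both classes, 0.07 and 0.02, lay within 0.05 of that of all genes. Within the 2243 genes with an intron and no ribosomal protein product the median was 0.04. This comparison was made after seeing the data and describes the 2 libraries only.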
